A study of Homo sapiens with 4 samples.

Results

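Semaphorins, plexins, neuropilins, ephrins and Eph receptors are the ligands and receptors by which touching or neighbouring cells attract and repel each other. The members described here are the protein-coding genes whose current symbol begins with SEMA, PLXNA, PLXNB, PLXNC, PLXND, EPHA, EPHB, EFNA or EFNB, together with NRP1 and NRP2. By this rule 53 of the 36525 genes of the deposited table were members: 20 semaphorins, 8 plexins, 2 neuropilins, 6 ephrin-A genes, 3 ephrin-B genes, 9 EphA receptors and 5 EphB receptors. PLXNB2, the remaining gene that the rule names, is not analysed here. RNA was sequenced from LM2 cells, a clonal line that metastasises to lung and was derived from the mesenchymal human breast cancer line MDA-MB-231. One group of 2 libraries was a control and the other group of 2 had hnRNPM, an RNA-binding splicing regulator, knocked down; harvest came 48 h from plating in both. One label calls the silencing agent an shRNA and another an siRNA, so it is written as "knockdown" below; the sources used here give neither its sequence nor that of the control agent. LM2 is 1 clone, and no label says whether libraries of the same group were separate cultures, so the p-values cover only the spread between these libraries, which may be technical.

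Semaphorins are grouped into classes: class 3 proteins are secreted, classes 4 to 6 span the membrane, and SEMA7A is held to the membrane by a lipid anchor. Plexins are their receptors, and most class 3 semaphorins reach plexins through the co-receptors NRP1 and NRP2, which also bind vascular endothelial growth factors. Ephrin-A proteins are lipid-anchored and bind mainly EphA receptor tyrosine kinases; ephrin-B proteins span the membrane and bind mainly EphB receptors. Signals pass both ways, into the cell with the receptor and into the cell with the ephrin, and in breast epithelium these families are known for boundary formation, vessel growth and cell motility.

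The targeted gene, HNRNPM, measured 88.6 and 102 RPKM in the control libraries and 11.5 and 13.0 RPKM in the knockdown libraries. Its mean was 7.80-fold lower in knockdown (log2 difference -2.91 ± 0.17, SE of limma, adjusted p 1.48e-59). RPKM divides reads by gene length and a sequencing total, and that total appeared to be common to both libraries of a group. Estimated reads on genes ranged from 16515094 (knockdown replicate 1) to 26559045 (control replicate 2). All 11 of 11 markers of basal and mesenchymal breast lines were above 1 RPKM, with sums of 1606 and 1854 RPKM in control and 1776 and 1971 RPKM in knockdown and VIM at 562 to 760 RPKM, while ESR1 stayed at 0.0198 to 0.0322 RPKM and PGR was at 0 in every library. Luminal markers summed to 17.4 and 19.7 RPKM in control and 25.9 and 28.97 RPKM in knockdown, and of the 5 above a mean of 1 RPKM 2 rose, KRT8 and KRT18 (KRT18 from 5.49 and 6.54 to 10.5 and 11.8 RPKM), while GATA3, EPCAM and KRT19 did not pass. Below that level CDH1 measured 0.0774 and 0.0629 RPKM against 0.717 and 0.990 RPKM, and SPDEF 0.873 and 1.07 RPKM against 0.352 and 0.335 RPKM. Of other cell types that use these guidance genes, 0 of 6 endothelial markers reached a mean of 1 RPKM (sums of 0.529 and 0.547 RPKM in control, 0.281 and 0.340 RPKM in knockdown, with EMCN at 0). Among neuronal markers 1 of 6, TUBB3, did (sums of 2.27 and 2.59 RPKM against 4.24 and 4.51 RPKM, with STMN2 and NEFM at 0). Among leukocyte markers 1 of 7, CD14, did: it measured 1.28 and 1.44 RPKM against 5.27 and 7.13 RPKM, beside PTPRC at 0.0112 to 0.0158 RPKM. The leukocyte sums were 1.42 and 1.64 RPKM against 5.39 and 7.26 RPKM. The part of the markers that moved in the results below was not tested.

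Of the 53 members, 24 had a mean of at least 1 RPKM over the 4 libraries and were tested, and 29 were below that level. After knockdown 7 of the 24 rose and 8 fell, and 9 did not pass the test (limma on log2 of RPKM plus 0.5, Benjamini-Hochberg adjusted p under 0.05 over 13627 genes, 2 libraries per group). SEMA3A, SEMA3B, SEMA3C, SEMA7A, PLXNB3, PLXND1 and EPHA4 rose. SEMA4B, SEMA4C, SEMA6B, NRP1, EFNA4, EFNB1, EFNB2 and EPHB2 fell. Over all genes tested 14.7% were called higher and 21.8% lower. The median log2 fold change was 0.01 over the 24 members and -0.07 over all genes tested. Of the 24, EPHA4 reached the filter only through the knockdown libraries and EFNB1 only through the control libraries, so a difference in these 2 is partly built into the filter.

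The 2 libraries of a group differed in overall level, which widens every standard error of the deposited values. With each library scaled by the median ratio over genes, 11 of the 24 members were called higher and 10 lower, and over all genes 31.1% were called higher and 30.0% lower. All 15 calls kept their direction in every alternative processing in which they were tested. SEMA3B, SEMA3C, PLXNB3, PLXND1, EFNB1, EFNB2 and EPHA4 also passed in each of the 4 fits that left out 1 library. SEMA3A and SEMA4B passed in none of those fits. With no filter on low values, limma called 1 of these 15, SEMA3B, with an adjusted p of 0.0466.

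**Figure D1:**
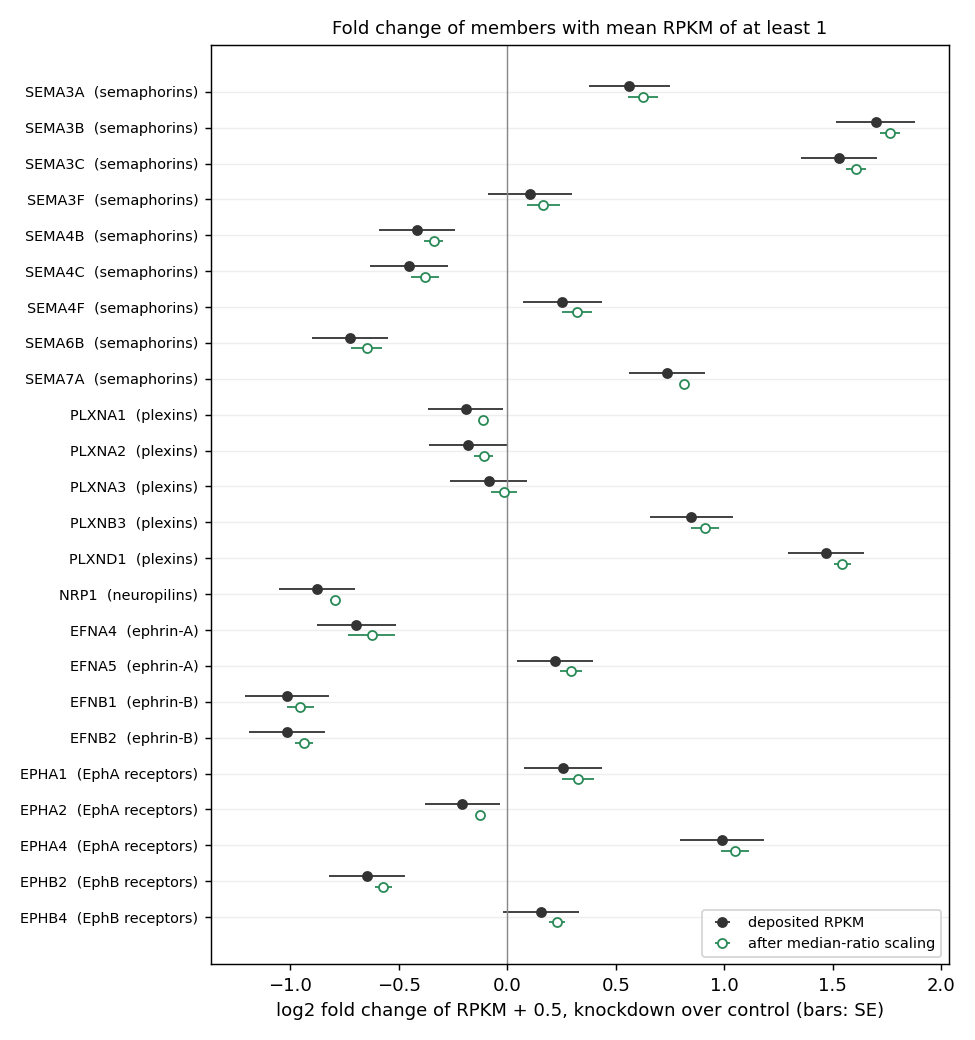
Log2 fold change of RPKM plus 0.5, knockdown over control, for the 24 members with a mean of at least 1 RPKM; bars are standard errors of the limma fit over 2 libraries per group, filled points are the deposited values and open points the values after median-ratio scaling. On the deposited values SEMA3B, SEMA3C and PLXND1 stand farthest to the right, at 1.70, 1.53 and 1.47, and EFNB1 and EFNB2 farthest to the left, both at -1.02; scaling shortens the bars.

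The promoters of the called members that changed at least 2-fold and have a single start in the RefSeq table (build GRCh38.p14) are shown to compare the base composition upstream of 2 receptors that rose and 2 ligands that fell. Each run is the 250 bases before the start, 5′ to 3′ on the gene's strand. Capitals mark GC boxes, GGGCGG or its reverse complement CCGCCC, and neighbouring matches can overlap.
PLXND1, chr3:129606677-129606926, minus strand: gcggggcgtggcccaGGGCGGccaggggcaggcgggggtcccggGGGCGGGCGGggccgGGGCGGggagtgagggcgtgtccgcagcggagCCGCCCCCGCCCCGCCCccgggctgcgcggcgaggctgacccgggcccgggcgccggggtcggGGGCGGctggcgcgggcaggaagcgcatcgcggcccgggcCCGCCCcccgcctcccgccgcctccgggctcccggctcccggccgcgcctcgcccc
PLXNB3, chrX:153763999-153764248, plus strand: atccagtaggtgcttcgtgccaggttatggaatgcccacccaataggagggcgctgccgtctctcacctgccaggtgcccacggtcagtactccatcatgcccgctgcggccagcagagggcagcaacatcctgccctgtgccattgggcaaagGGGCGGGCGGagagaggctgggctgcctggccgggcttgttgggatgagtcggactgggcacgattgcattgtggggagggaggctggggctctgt
EFNB2, chr13:106535663-106535912, minus strand: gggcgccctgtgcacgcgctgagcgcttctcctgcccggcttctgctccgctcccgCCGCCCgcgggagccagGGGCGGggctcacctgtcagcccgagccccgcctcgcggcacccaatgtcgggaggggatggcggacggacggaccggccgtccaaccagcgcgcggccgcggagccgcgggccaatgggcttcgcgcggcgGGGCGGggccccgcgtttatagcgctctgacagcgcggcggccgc
EFNB1, chrX:68828771-68829020, plus strand: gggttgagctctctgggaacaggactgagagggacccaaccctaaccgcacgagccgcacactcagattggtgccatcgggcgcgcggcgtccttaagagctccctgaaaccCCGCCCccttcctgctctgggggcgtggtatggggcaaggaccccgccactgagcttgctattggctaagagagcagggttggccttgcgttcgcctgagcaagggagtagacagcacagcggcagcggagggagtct
The PLXND1 run held 9 GC boxes and was 88.8% G or C, the EFNB2 run held 3 and was 78.4%, the PLXNB3 run held 2 and was 64.4%, and the EFNB1 run held 1 and was 63.6%. Over the 35116 promoters of the table the median was 58% G or C, and 42.6% held a GC box. The E-box CACCTG was found 2 times upstream of PLXNB3 and 1 time upstream of EFNB2, against 17.5% of all promoters with a match. The letters TATAAA were found upstream of EFNB2 alone among the 4, on the strand opposite to the printed run, against 10.7% of all promoters with a match. All motifs were searched on both strands. The AP-1 letters TGANTCA were in none of the 4 windows and in 6.57% of all promoters. So the promoters of a gene that rose and of a gene that fell both lie at the GC-rich end. These matches are descriptions of the letters, on the RefSeq build and not the hg19 build of the deposited values.

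Among the semaphorins, 9 of 20 were tested, and 4 rose and 3 fell. All 3 that rose besides SEMA7A were secreted class 3 genes, and those that fell were transmembrane genes of classes 4 and 6. SEMA3C, a secreted ligand that acts through neuropilins and plexins, measured 4.49 and 5.48 RPKM in control and 14.1 and 16.5 RPKM in knockdown. Both knockdown libraries were well above both control libraries, with means of 15.3 ± 1.65 against 4.98 ± 0.697 RPKM (SD, n = 2), a 3.07-fold rise. On the log2 scale the difference was 1.53 ± 0.18 (SE; adjusted p 1.66e-16).

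SEMA3B, a class 3 ligand often described as a candidate tumour suppressor, was near the filter in control, at 1.10 and 1.27 RPKM, and reached 4.65 and 5.26 RPKM in knockdown. The groups did not overlap, and the means, 1.18 ± 0.12 and 4.96 ± 0.426 RPKM, differed 4.19-fold (log2 difference 1.70 ± 0.18 SE, adjusted p 9.17e-19). SEMA3A, the classical axon repellent that signals through NRP1 and A-type plexins, was at 1.49 and 1.60 RPKM in control and 2.50 and 2.54 RPKM in knockdown. Its 2 groups were separate and its mean was 1.63-fold higher (log2 difference 0.56 ± 0.19, adjusted p 0.0101), but the adjusted p was 0.0684 when control replicate 1 was left out, 0.0536 when control replicate 2 was, 0.114 for knockdown replicate 1 and 0.123 for knockdown replicate 2. SEMA3F, which prefers NRP2 as its co-receptor, stayed at 1.45 and 1.47 RPKM against 1.54 and 1.68 RPKM and did not pass (log2 difference 0.11 ± 0.19, adjusted p 0.709). Of the 7 class 3 genes, therefore, 3 of the 4 tested were higher.

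SEMA7A, the lipid-anchored semaphorin that also binds integrins, had the highest level of the family. It measured 19.4 and 22.2 RPKM in control and 33.0 and 36.8 RPKM in knockdown. Every knockdown value lay above every control value, and the mean rose 1.68-fold (log2 difference 0.74 ± 0.17, adjusted p 0.000171). Leaving out a library moved the adjusted p to 0.0658 for control replicate 1, 0.0367 for control replicate 2, 0.0613 for knockdown replicate 1 and 0.148 for knockdown replicate 2.

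Of the 4 transmembrane semaphorins tested, SEMA4B, SEMA4C and SEMA6B fell and SEMA4F did not pass. SEMA6B, a class 6 ligand of A-type plexins, measured 7.17 and 8.20 RPKM in control and 3.95 and 4.99 RPKM in knockdown. Its groups did not overlap and its mean was 1.72-fold lower (log2 difference -0.72 ± 0.18, adjusted p 0.000242, 0.0745 without control replicate 2 and 0.187 without knockdown replicate 1). SEMA4B was at 9.07 and 10.4 RPKM against 7.03 and 7.24 RPKM, and SEMA4C, a ligand of B-type plexins, at 3.07 and 3.92 RPKM against 2.31 and 2.50 RPKM. Both were lower in each knockdown library, by 1.36-fold and 1.45-fold, at adjusted p 0.0475 and 0.0357, close to the threshold. SEMA4B did not pass without any 1 library (adjusted p from 0.0878, without control replicate 1, to 0.437, without knockdown replicate 1). SEMA4C passed without control replicate 1 (0.0468) but not when another library was left out (0.260 for control replicate 2, 0.365 for knockdown replicate 1, 0.213 for knockdown replicate 2). Without a variance trend the values were 0.0919 for SEMA4B and 0.0653 for SEMA4C. SEMA4F measured 2.15 and 2.21 RPKM against 2.59 and 2.80 RPKM. Its log2 difference of 0.25 ± 0.18 did not pass on the deposited values (adjusted p 0.287) and did after median-ratio scaling (0.32, adjusted p 0.0224).

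**Figure D2:**
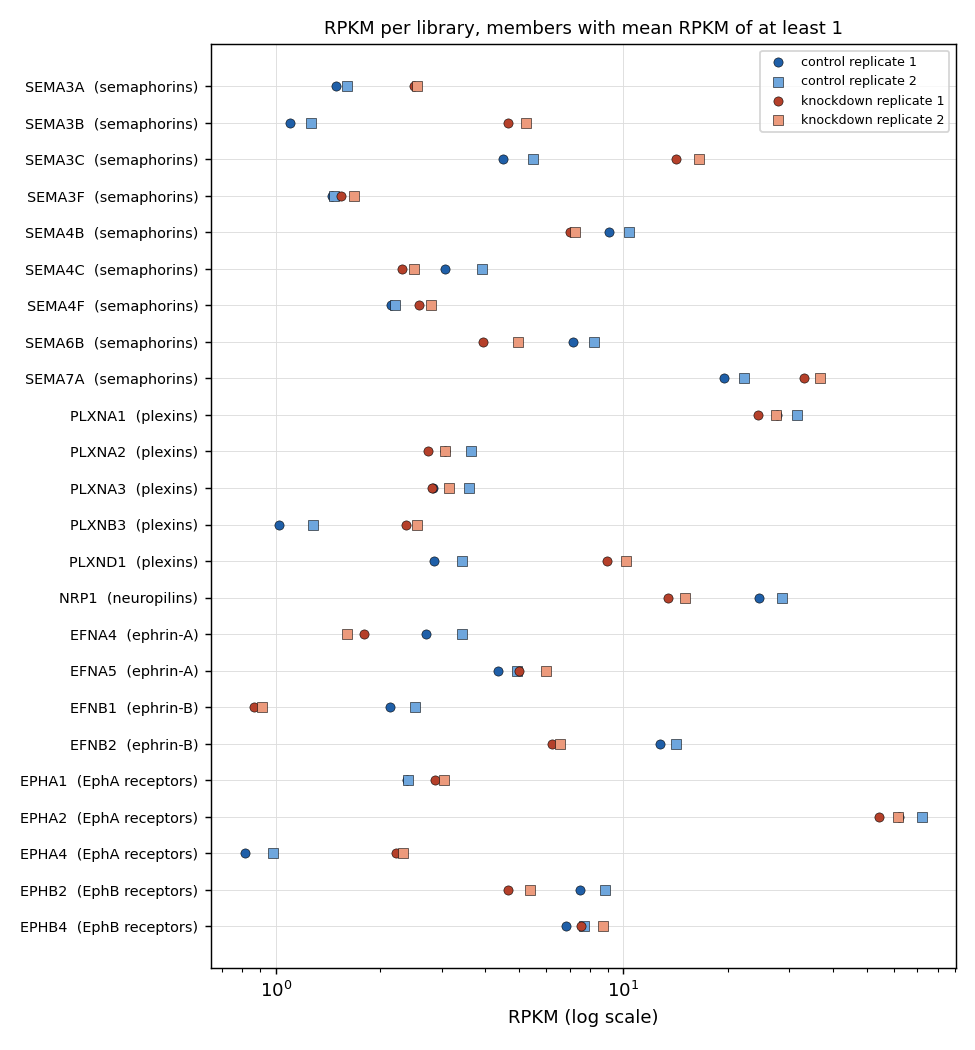
RPKM on a log axis of the 24 tested members in each of the 4 libraries, grouped by family; each point is 1 library, blue for control and red for knockdown. EPHA2, PLXNA1, NRP1 and SEMA7A hold the highest levels, and the points of the 2 groups overlap in PLXNA3 and in EPHB4, where control is at 6.83 and 7.70 RPKM and knockdown at 7.56 and 8.73 RPKM.

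Of the receptors for semaphorins, 5 of 8 plexins and 1 of 2 neuropilins were tested. PLXND1 and PLXNB3 rose, NRP1 fell, and none of the 3 A-type plexins tested passed on the deposited values. PLXND1, a receptor for SEMA3E and, with neuropilins, for other class 3 semaphorins, measured 2.85 and 3.42 RPKM in control and 8.95 and 10.2 RPKM in knockdown. The 2 groups were far apart, with means of 3.14 ± 0.402 and 9.56 ± 0.862 RPKM, a 3.05-fold rise (log2 difference 1.47 ± 0.18, adjusted p 2.76e-15). PLXNB3, a receptor for SEMA5A, measured 1.02 and 1.28 RPKM against 2.37 and 2.55 RPKM. Its groups did not overlap and its mean rose 2.14-fold (log2 difference 0.85 ± 0.19, adjusted p 6.84e-05). SRPK3, on the same strand, shares 20.4% of the PLXNB3 exon bases in the annotation and measured 0.609 and 0.75 RPKM against 1.03 and 1.14 RPKM, so reads of the shared stretch cannot be told apart.

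NRP1, the co-receptor of SEMA3A and SEMA3C and a binder of VEGFA, measured 24.5 and 28.5 RPKM in control and 13.4 and 15.0 RPKM in knockdown. Both control libraries stood above both knockdown libraries, and the mean fell 1.87-fold (log2 difference -0.88 ± 0.17, adjusted p 5.60e-06, and 0.0664 without knockdown replicate 1). An unnamed antisense gene, ENSG00000238258, overlaps 4.87% of the NRP1 exon bases and measured 31.7 and 36.6 RPKM against 15.1 and 18.1 RPKM. The sources used here do not say whether counting used strand, so the 2 genes are uncertain where they overlap.

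PLXNA1, a partner of neuropilins and the most abundant of the 8 plexins analysed, measured 27.7 and 31.6 RPKM against 24.3 and 27.4 RPKM. Its highest knockdown value was just below its lowest control value, and the log2 difference of -0.19 ± 0.17 did not pass (adjusted p 0.408; after median-ratio scaling -0.11, adjusted p 0.0153). PLXNA2 was at 3.06 and 3.65 RPKM against 2.74 and 3.06 RPKM, and PLXNA3 at 2.83 and 3.60 RPKM against 2.81 and 3.15 RPKM. PLXNA3 overlapped between groups, neither gene passed before or after scaling, and the PLXNA3 difference of -0.09 became 0.06 without control replicate 2. Measured within a library, SEMA3C stood at 0.183 and 0.192 of the NRP1 level in control and at 1.06 and 1.10 of it in knockdown. PLXND1 likewise went from 0.116 and 0.12 of the NRP1 level to 0.668 and 0.678. These ratios of RPKM do not depend on the overall level of a library, and they are given as a description, with no test.

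All 3 ephrins that passed were lower in knockdown. EFNB2, the ligand of EPHB4 known from the arterial side of vessels, measured 12.8 and 14.2 RPKM in control and 6.25 and 6.56 RPKM in knockdown. The control values were both above the knockdown values, and the means of 13.5 ± 0.998 and 6.40 ± 0.220 RPKM differed 2.10-fold (log2 difference -1.02 ± 0.18, adjusted p 1.04e-07). An antisense gene overlaps 26.2% of the EFNB2 exon bases in the annotation, and it is not analysed here. EFNB1, an X-linked ligand of EphB receptors, measured 2.13 and 2.51 RPKM against 0.865 and 0.916 RPKM. Its groups did not overlap, and its mean was 2.61-fold lower (log2 difference -1.02 ± 0.19, adjusted p 1.92e-06). EFNB1 is the member that reached the filter through its control libraries only.

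EFNA4, a lipid-anchored ligand of EphA receptors, measured 2.70 and 3.44 RPKM in control and 1.79 and 1.60 RPKM in knockdown. It was lower in both knockdown libraries, 1.81-fold in the mean (log2 difference -0.70 ± 0.18, adjusted p 0.000868), with an adjusted p of 0.0740 without control replicate 2 and 0.0805 without knockdown replicate 2. The readthrough gene EFNA4-EFNA3 shares 15.0% of its exon bases. EFNA5, an ephrin-A best known from retinal and cortical mapping, was at 4.35 and 4.94 RPKM against 5.01 and 5.98 RPKM and did not pass (log2 difference 0.22 ± 0.18, adjusted p 0.345; after scaling 0.29, adjusted p 0.0126). So after scaling the ephrins held 3 calls lower, the same EFNB1, EFNB2 and EFNA4, and 1 higher, EFNA5.

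Of the Eph receptors, 5 of 14 were tested. EPHA4 rose, EPHB2 fell, and EPHA1, EPHA2 and EPHB4 did not pass. EPHA4, which binds ephrins of both types, measured 0.815 and 0.980 RPKM in control and 2.21 and 2.33 RPKM in knockdown. The knockdown values were both above the control values, with means of 2.27 ± 0.0821 and 0.897 ± 0.116 RPKM, a 2.53-fold difference (log2 0.99 ± 0.19, adjusted p 3.81e-06). EPHB2, a receptor for ephrin-B ligands, measured 7.49 and 8.83 RPKM against 4.64 and 5.40 RPKM. The groups were separate and the mean was 1.63-fold lower (log2 difference -0.65 ± 0.18, adjusted p 0.00114). It passed without control replicate 1 (0.0325) but missed the threshold in the other fits of that kind, at 0.0930 without control replicate 2, 0.216 for knockdown replicate 1 and 0.0591 for knockdown replicate 2.

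EPHA2, an ephrin-A receptor that is high in many basal breast cancer lines, was the most abundant member, at 62.0 and 72.0 RPKM in control and 54.2 and 61.7 RPKM in knockdown. The knockdown values lay just under the control values, and the log2 difference of -0.21 ± 0.17 did not pass (adjusted p 0.361; after scaling -0.13, adjusted p 0.0110). EPHA1 measured 2.38 and 2.41 RPKM against 2.86 and 3.05 RPKM (log2 difference 0.26 ± 0.18, adjusted p 0.275; after scaling 0.32, adjusted p 0.0271). EPHB4, whose ligand is EFNB2, measured 6.83 and 7.70 RPKM against 7.56 and 8.73 RPKM, values that overlap (log2 difference 0.15 ± 0.18, adjusted p 0.526; after scaling 0.23, adjusted p 0.0106). Its ratio to its ligand turned round within libraries: EFNB2 stood at 1.87 and 1.84 of the EPHB4 level in control and 0.827 and 0.751 of it in knockdown. EPHB2 went from 1.10 and 1.15 of the EPHB4 level to 0.614 and 0.618.

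The makeup of each family shows the same values as shares of its summed RPKM, which are free of a library's overall level. Semaphorins summed to 52.4 and 60.0 RPKM in control and 74.3 and 83.2 RPKM in knockdown, a difference larger than the spread within either group. The secreted class 3 genes made up 17.3% and 17.4% of that sum in control and 31.7% and 32.2% in knockdown, with SEMA3C going from 8.57% and 9.13% to 19.0% and 19.8%. Class 4 made up 30.9% and 31.0% against 17.7% and 16.9%, and class 6 made up 14.7% and 14.6% against 6.10% and 6.51%. A share also falls where the family total rises. The class 4 sum was 16.2 and 18.6 RPKM against 13.1 and 14.0 RPKM, 1.28-fold lower in the mean. The class 6 sum was 7.70 and 8.78 RPKM against 4.54 and 5.41 RPKM. SEMA4F fell in share, from 4.10% and 3.68% to 3.48% and 3.37%, though its RPKM was higher in both knockdown libraries. SEMA7A, at 37.0% in both control libraries, held 44.4% and 44.3% in knockdown. Thus the class 3 share was higher and the class 4 and class 6 shares lower in both knockdown libraries, while the 2 libraries of a group differed by less than 1 percentage point in each of these class shares.

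The 8 plexins analysed, which leave out PLXNB2, summed to 38.2 and 44.5 RPKM in control and 41.9 and 47.0 RPKM in knockdown. These ranges overlap on the deposited values, which keep the depth of each library, and the sums were not compared after scaling. Within that sum PLXNA1 held 72.5% and 71.1% in control and 58.1% and 58.3% in knockdown, and PLXND1 held 7.47% and 7.69% against 21.4% and 21.6%. Ephrins summed to 23.9 and 27.4 RPKM against 16.0 and 17.5 RPKM. Ephrin-B genes made up 63.3% and 61.9% of the ephrin sum in control and 44.7% and 43.2% in knockdown; they summed to 15.1 and 16.9 RPKM against 7.14 and 7.55 RPKM. The ephrin-A genes summed to 8.76 and 10.4 RPKM against 8.84 and 9.93 RPKM, which overlap on the deposited values. The lower total was thus in the ephrin-B genes. Within the ephrin-A sum EFNA4, EFNA3 and EFNA4-EFNA3 were lower in both knockdown libraries, and EFNA1 and EFNA5 were higher. Eph receptors summed to 80.0 and 92.5 RPKM against 72.4 and 82.2 RPKM. EPHA2 made up 77.6% and 77.8% of that sum in control and 74.9% and 75.0% in knockdown, and EPHA4 made up 1.02% and 1.06% against 3.06% and 2.83%. In bulk RNA a change in the RNA of every cell and a change in the number of cells that express a gene cannot be told apart.

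**Figure D3:**
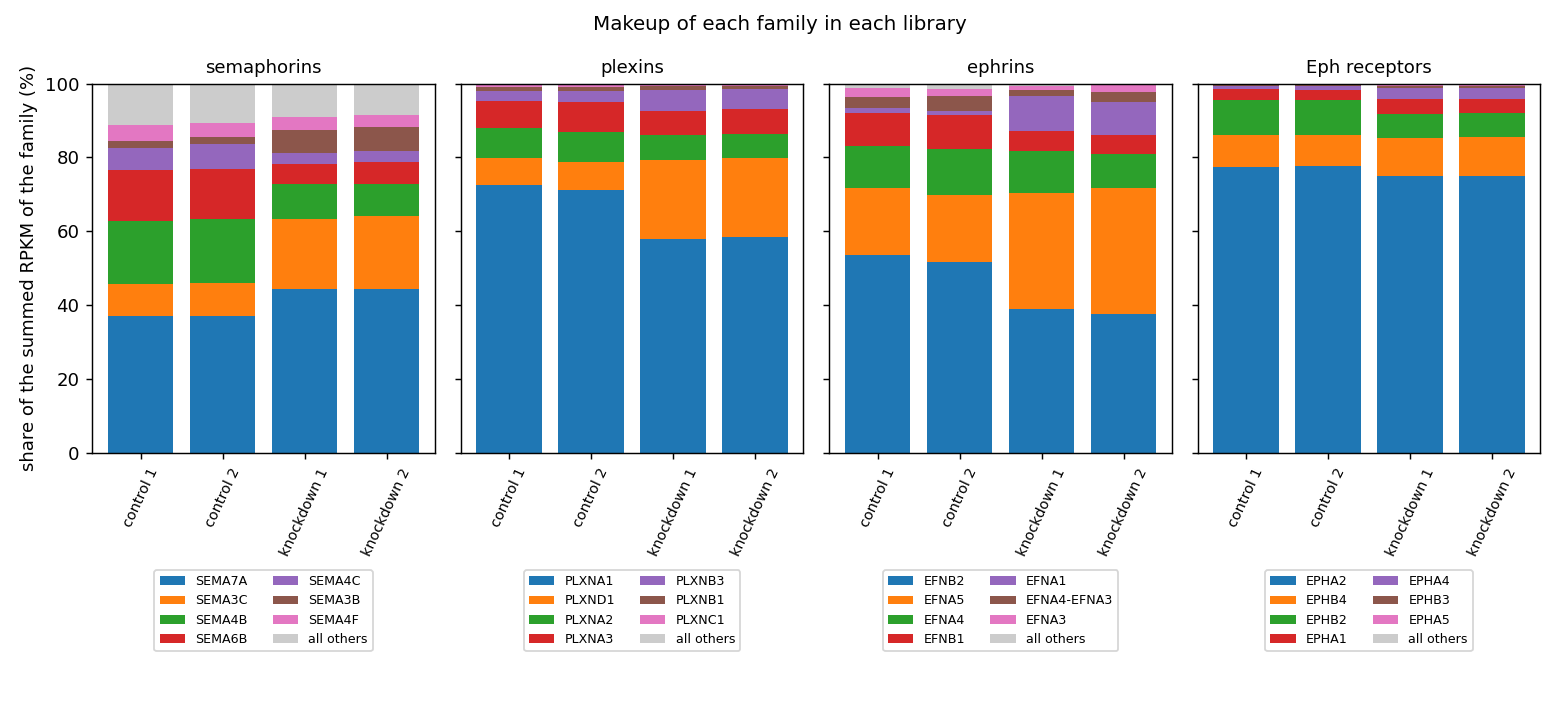
Share (%) of each member in the summed RPKM of its family in each of the 4 libraries, for semaphorins, plexins, ephrins and Eph receptors; members beyond the 7 largest are joined as all others. In knockdown SEMA3C and SEMA3B widen at the cost of SEMA4B and SEMA6B, PLXND1 widens beside PLXNA1, and EFNB2 narrows beside EFNA5 and EFNA1.

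The 29 members below a mean of 1 RPKM were low rather than uniformly silent. Of these, 18 had a mean of at least 0.1 RPKM, 10 were above 0 and below 0.1 RPKM, and EPHB6, a receptor without kinase activity, was at 0 in every library. A fit added after the data were seen, with scaled libraries and a filter at 0.1 RPKM, called 22.6% of its 21044 genes higher and 22.8% lower. Of the 18 low members in it, EFNA1, EPHA5 and SEMA3E were called higher and EFNA3, EFNA4-EFNA3, EFNB3 and SEMA4D lower.

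EFNA1, the main ephrin-A ligand of EPHA2, measured 0.348 and 0.320 RPKM in control and 1.51 and 1.58 RPKM in knockdown. These values stand for an estimated 37 and 34 reads against 114 and 119 reads, with no overlap, and the mean was 4.64-fold higher (adjusted p 0.0020 in the added fit, 0.0493 in the unscaled fit with no filter). Within libraries EPHA2 stood at 178 and 225 times the EFNA1 level in control and at 35.8 and 39.0 times in knockdown. SEMA3E, the class 3 ligand that binds PLXND1 without a neuropilin, measured 0.125 and 0.149 RPKM against 0.479 and 0.537 RPKM, 3.72-fold higher in the mean (adjusted p 0.0062 in the added fit, 0.0547 with no filter). Both SEMA3E and its receptor PLXND1 were thus higher in each knockdown library, although SEMA3E remained below 1 RPKM. EPHA5 measured 0.134 and 0.177 RPKM against 0.377 and 0.449 RPKM, 2.66-fold higher (adjusted p 0.0148, and 0.0765 with no filter).

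SEMA4D, a ligand of PLXNB1, measured 1.18 and 1.37 RPKM in control and 0.517 and 0.631 RPKM in knockdown, or an estimated 700.0 and 811 reads against 217 and 265 reads. The groups were separate and the mean was 2.22-fold lower (adjusted p 0.0062 in the added fit, 0.0803 with no filter). Its direction was that of SEMA4B and SEMA4C, while SEMA4F was higher in both knockdown libraries and SEMA4G overlapped between groups. EFNB3 measured 0.222 and 0.252 RPKM against 0.0314 and 0.0733 RPKM, which rests on an estimated 3 and 7 reads in knockdown (adjusted p 0.0311, and 0.0666 with no filter). It reached the filter at 0.1 RPKM only through its control libraries, so its call in the added fit is partly built into that filter. EFNA3 measured 0.546 and 0.580 RPKM against 0.209 and 0.321 RPKM, and EFNA4-EFNA3 measured 0.733 and 1.05 RPKM against 0.259 and 0.453 RPKM. All their knockdown values were below their control values (adjusted p 0.0342 and 0.0331 in the added fit, 0.113 and 0.153 with no filter). The readthrough gene shares 81.9% of its exon bases with EFNA3 and 18.1% with EFNA4, so the 3 genes are uncertain where they share reads.

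The other 11 members in the added fit did not pass it. NRP2, the second neuropilin, measured 0.531 and 0.606 RPKM against 0.584 and 0.670 RPKM, overlapping values. PLXNB1, the SEMA4D receptor, was at 0.366 and 0.519 RPKM against 0.379 and 0.396 RPKM, and PLXNC1, the SEMA7A receptor, at 0.246 and 0.249 RPKM against 0.205 and 0.167 RPKM. The most abundant semaphorin thus stood beside a plexin receptor below 1 RPKM in every library. SEMA7A also binds integrins, and the integrin genes ITGB1 and ITGA1 measured 88.6 to 124 RPKM and 1.19 to 1.68 RPKM over the 4 libraries. EPHB3 was at 0.242 and 0.374 RPKM against 0.402 and 0.513 RPKM (adjusted p 0.101). SEMA4G, which shares 22.3% of its exon bases with MRPL43 on the opposite strand, was at 0.691 to 0.828 RPKM over the 4 libraries. SEMA3D, SEMA3G, SEMA6A, SEMA6C, SEMA6D and PLXNA4 each lay between 0.0471 RPKM, in SEMA3G, and 0.314 RPKM, in SEMA3D. The class 3 genes SEMA3D (0.261 and 0.314 against 0.201 and 0.222 RPKM) and SEMA3G (0.157 and 0.138 against 0.0471 and 0.0807 RPKM) were lower in both knockdown libraries. So were SEMA6A and PLXNA4, while SEMA6D was higher in both (0.106 and 0.112 against 0.197 and 0.114 RPKM) and SEMA6C overlapped.

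Of the 10 members above 0 and below 0.1 RPKM, SEMA5A, a ligand of PLXNB3, held an estimated 19 and 22 reads in control and 31 and 34 reads in knockdown, or 0.0375 and 0.0434 RPKM against 0.0864 and 0.0948 RPKM. The knockdown values were both higher, and the adjusted p with no filter was 0.0979. EFNA2, EPHA3, EPHA6, EPHA7, EPHA8, EPHA10, EPHB1, SEMA4A and SEMA5B held fewer than 20 estimated reads in each library, too few to show a difference at this depth. Among Eph receptors, therefore, 5 genes made up nearly all of the summed RPKM and 7 of 14 were below 0.1 RPKM.

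**Figure D4:**
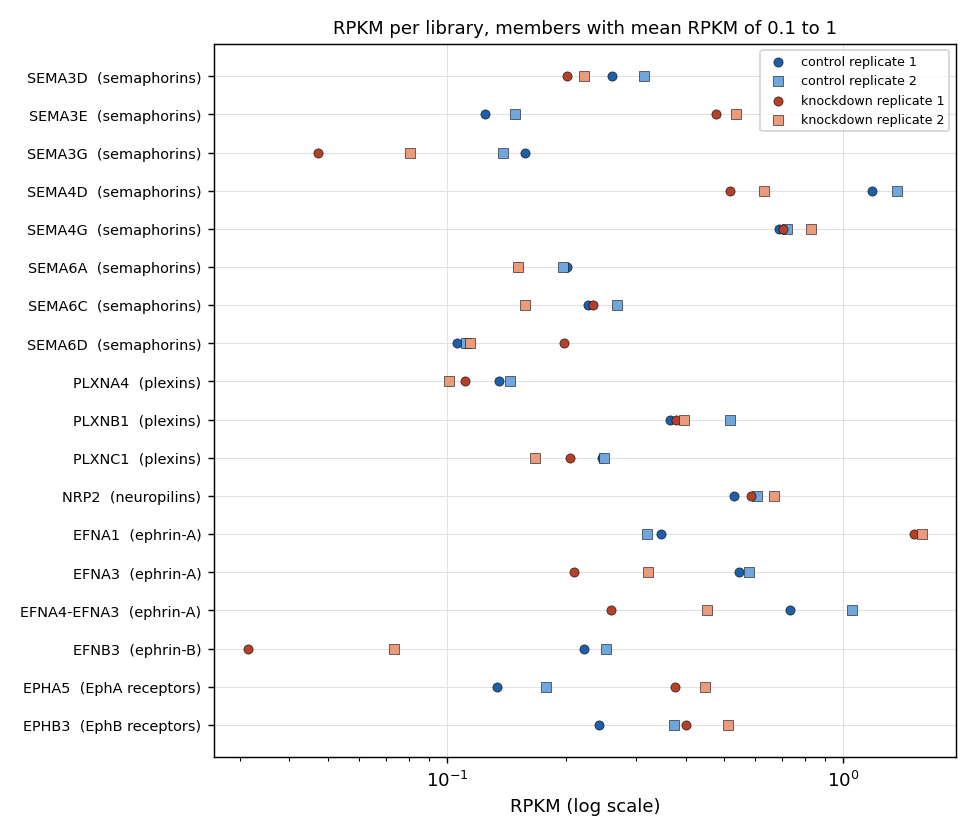
RPKM on a log axis of the 18 members with a mean of 0.1 to 1 RPKM in each of the 4 libraries; each point is 1 library, blue for control and red for knockdown. EFNA1 and SEMA3E stand apart by group with knockdown above control, and SEMA4D, EFNA3 and EFNB3 with knockdown below control.

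Genes that carry the signal of these receptors were taken from lists of known partners. In the list for semaphorin and plexin signalling 36 of 49 genes were tested, and 5 rose, 5 fell and the other 26 missed the threshold, beside 14.7% called higher and 21.8% lower over all genes. The median log2 fold change of the list was 0.01, against -0.07 over all genes. VEGFA, the growth factor that shares NRP1 with the semaphorins, measured 9.33 and 10.6 RPKM in control and 2.87 and 3.23 RPKM in knockdown. All its control values were above its knockdown values, and its mean was 3.27-fold lower (log2 difference -1.56 ± 0.18, adjusted p 3.52e-17). RHOD, a small GTPase that binds plexins, measured 5.001 and 4.98 RPKM against 14.4 and 15.0 RPKM and rose 2.94-fold (log2 difference 1.46 ± 0.18, adjusted p 3.39e-15). PAK1, a kinase downstream of Rac, fell 2.50-fold, from 4.88 and 5.52 RPKM to 2.01 and 2.15 RPKM (adjusted p 2.93e-09). FARP1, a guanine nucleotide exchange factor, fell 2.31-fold, from 7.43 and 8.92 RPKM to 3.52 and 3.55 RPKM (adjusted p 6.60e-09). These 4 genes passed in every fit without 1 library. Of the other 6, named after their values were seen, GIPC1, RRAS2, VEGFB and VEGFC rose and CRMP1 and DPYSL2, which relay SEMA3A signals to the cytoskeleton, fell. CRMP1 reached the filter at 1 RPKM only through its control libraries, so its difference is partly built into the filter. In each fit without 1 library 3 of the list were called higher and 4 lower, and after scaling 16 higher and 11 lower, beside 31.1% and 30.0% of all genes.

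In the list for Eph and ephrin signalling 28 of 46 genes were tested, and 6 rose, 5 fell and the other 17 missed the threshold, beside the same 14.7% and 21.8% over all genes. The median of the list was -0.02 on the log2 scale. CHN1, a Rac inactivator that acts below EPHA4, measured 1.83 and 2.43 RPKM in control and 4.67 and 4.88 RPKM in knockdown. The groups were separate and the mean rose 2.24-fold (log2 difference 1.01 ± 0.18, adjusted p 1.96e-07), in the same direction as EPHA4. PTPN11, a phosphatase recruited to receptor tyrosine kinases, fell 1.63-fold from 7.57 and 8.62 RPKM to 4.54 and 5.38 RPKM (adjusted p 0.000970). SIPA1L1, an inactivator of Rap GTPases, fell 1.73-fold (adjusted p 0.00244), and ANKS1A, an adaptor that binds Eph receptors, fell 1.68-fold (adjusted p 0.00259). The rest of the calls, named after their values were seen, were ABL2, ADAM10, CDC42, CRK and NCK1, which rose, and ABL1 and NCK2, which fell. Without any 1 library CHN1 alone of the 6 remained called higher, and the number called lower was 3 without control replicate 1, 0 without control replicate 2 or knockdown replicate 1, and 1 without knockdown replicate 2, against 7 lower at an unadjusted p under 0.05 with all 4 libraries. Scaling gave 12 higher and 10 lower, beside 31.1% and 30.0% of all genes.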

How the data were processed

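The authors deposited 1 table of RPKM values for 36525 genes, with 1 column for each of the 4 libraries. The submitters' processing notes name Bowtie 0.12.7 and the build hg19; how reads were counted, by strand or not, and scaled is not given in the sources. A current symbol table named 32172 of the gene IDs, GENCODE 29 named 136, and 4217 stayed unnamed; 0 columns of per-sample values were left out. The table held 0 genes of each of chromosomes 20, 21 and 22. Low RPKM values fell in whole steps (82.5% of 39316 within 0.1 read), from which reads per gene were estimated for description only; depth is thus an estimate, and more reads give less counting error.

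Values were taken as log2(RPKM + 0.5), genes with a mean of at least 1 RPKM were kept, and limma 3.58.1 in R 4.3.3 fitted knockdown against control with a variance trend and Benjamini-Hochberg adjustment. In the main fit the prior degrees of freedom were infinite, so genes were tested against a shared, trended variance. This did not hold in every alternative. HNRNPM had an SE of 0.174 and an adjusted p of 1.48e-59 in the main limma fit. Its SE was smaller after scaling (0.0186, adjusted p 0.000146) and with no filter (0.121, adjusted p 0.0445), yet both adjusted p-values were far larger. The size of an adjusted p should therefore not be compared between fits. Fold changes are on the log2(RPKM + 0.5) scale in the fit and understate changes of low genes, while folds of means are of RPKM itself. The fit was tested on simulated data with independent noise for each gene and no difference in overall level between libraries. That run checks the code and does not measure the error rate in these data. Libraries of a group differed by more than counting noise (mean chi-square per gene 1.327 in control and 1.315 in knockdown on the estimated reads). Pairs of a control and a knockdown library gave 81.41 to 90.01 on the same measure. Each library was counted as 1 sample, but these values cannot show that the libraries were separate cultures. Alternatives were 2 pseudocounts, 2 filters, median-ratio scaling, no variance trend, protein-coding genes only, a replicate block and the removal of each library. A fit with a lower filter was added after the data were seen.

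The members and lists were chosen with earlier results of these data known. Named were HNRNPM, every member past the threshold, the highest member of each class, other members by level, and up to 4 genes with the smallest p in each pathway list. Overlaps between exons are from GENCODE 29 and promoters from RefSeq (47 of 53 members matched). Protein sequences are not used here.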

Additional observations from a re-analysis of the deposited data

How the results depend on the processing

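Against 2000 genes called higher and 2964 lower, the fit with no filter gave 262 and 255, that with a mean of at least 5 RPKM gave 1047 and 1321, median-ratio scaling 4235 and 4083, the replicate block 3109 and 4318, and the added lower filter with scaling 4758 and 4804; fits without 1 library gave 759 to 1158 higher and 1057 to 2007 lower. For the members, 7 higher and 8 lower became 2 and 0 in limma with no filter (12 and 13 at an unadjusted p under 0.05), 3 and 5 with at least 5 RPKM, 11 and 10 with scaling, 8 and 10 with the replicate block, 14 and 14 in the added fit, and 5 to 6 and 3 to 7 without 1 library. The median log2 fold change of the members was -0.20 with at least 5 RPKM and -0.08 to 0.09 without 1 library, so its sign is not fixed. HNRNPM ranged from -3.02 to -2.81 without 1 library. PLXNA3 changed from -0.09 to 0.063 without control replicate 2 and ranged down to -0.24 (without control replicate 1) in the fits without 1 library. The other pseudocounts and the restriction to protein-coding genes changed no call of a member. Whether replicate numbers pair the libraries is not stated: deviations of same-numbered libraries correlated at 0.0307 over 13627 genes, and the replicate block added 3 member calls and ended none. The cause of these differences was not tested. Depth limits the members below 0.1 RPKM, and 2 libraries per group limit every call.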

Other observations

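Netrins, Slits and RGM proteins form further guidance systems. Of 27 listed genes for netrin, Slit and RGM signalling 7 were tested; 3 fell, 4 did not pass and 0 rose by limma, 0 also at an unadjusted p under 0.05, while scaling called 1 higher and 4 lower (over all genes 14.7% were called higher and 21.8% lower, and 31.1% and 30.0% after scaling). ROBO4, a Slit receptor family member known from vessels, measured 3.23 and 3.62 RPKM in control and 1.46 and 1.56 RPKM in knockdown, 2.27-fold lower (log2 difference -0.96 ± 0.18, adjusted p 1.85e-06). ROBO3, which sets midline crossing of axons, measured 2.11 and 2.17 RPKM against 0.845 and 0.792 RPKM, 2.62-fold lower (log2 difference -1.002 ± 0.20, adjusted p 3.59e-06). ROBO3 reached the filter at 1 RPKM only through its control libraries, so its difference is partly built into the filter. SLIT2, a secreted ligand of Robo receptors, measured 3.73 and 4.06 RPKM against 2.43 and 2.58 RPKM, 1.55-fold lower (adjusted p 0.00856, and 0.0890, 0.217 and 0.132 when control replicate 2, knockdown replicate 1 or knockdown replicate 2 was left out). The knockdown values of all 3 lay below their control values, but these 3 were picked by their calls, so this adds no separate support. The netrin receptor genes DCC and UNC5A were at 0 in every library.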
